A study of Homo sapiens with 4 samples.

Results

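Disulfide bonds of secreted and membrane proteins are made in the endoplasmic reticulum (ER), where the ERO1 oxidases pass electrons from the protein disulfide isomerases (PDIs) to oxygen and so keep the isomerases ready to oxidise new chains. The PDIs form, break and shuffle the bonds, and the lectins calnexin (CANX) and calreticulin (CALR) hold glycoproteins in place while PDIA3 acts on them. Of 10 genes chosen from this machinery, the 9 with a usable probe set are described here among 18132 genes named on the arrays: the oxidases ERO1A and ERO1B, the isomerases P4HB, PDIA3, PDIA4, PDIA5 and PDIA6, and the lectins CANX and CALR. They were taken as every probe set whose annotation gives 1 gene symbol from the list, 32 probe sets in all. The isomerase TXNDC5 has 0 such probe sets, because both of those that list it carry a second symbol, so it has no value here. ERO1A and CANX were selected on their measured values in this same comparison, so their values are given as a description without a test. The other 7 genes joined them as relatives in the pathway, with earlier results for some of them known.

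The cells were SCC-9, an established human line of tongue squamous cell carcinoma. In the mimic group the cells received a synthetic copy of the microRNA miR-585-5p, and in the control group the negative control small RNA miR-NC, both at 30 nM. Both groups were seeded 24 hours before transfection and harvested for total RNA 36 hours after it, with 2 arrays per group. The labels do not say whether the arrays of a group were separate cultures, and errors and p-values describe the spread between arrays, which may be technical.

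The agent of the experiment is shown first, because the seed (bases 2 to 8, in capitals) is the part of a microRNA that pairs with its targets. The mature arms in RefSeq (GRCh38.p14, minus strand) lie at chr5:169263649-169263670 for the supplied arm and chr5:169263616-169263634 for the opposite arm.
hsa-miR-585-5p: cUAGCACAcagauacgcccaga
hsa-miR-585-3p: uGGGCGUAucuguaugcua
The arms have different seeds. Sites for the seed in the transcripts of the 9 genes were not analysed here.

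The arrays had median intensities of 30.6 to 31.3, a likeness that normalization between arrays brings about. The log2 difference between arrays of a group had an SD of 0.178 (mimic) and 0.211 (control) over probe sets. The 3' to 5' ratio of GAPDH, which rises as RNA degrades, stood at 1.11 for each mimic array against 1.16 and 1.22 for the controls. That of ACTB was far higher, at 14.3 for each mimic array and 14.4 and 13.8 for the controls, and the part of either in the results was not tested. All 5 squamous epithelial markers with a probe set of 1 symbol (KRT5, KRT14, EPCAM, CDH1 and DSG3) were above the 20 control probe sets with no human target, the highest of which read 16.8. Their summed intensity was 16464 to 17313 on the mimic and 13986 to 14841 on the control arrays. At their brightest probe sets KRT14 (log2 change 0.97), EPCAM (0.59) and KRT5 (0.24, but -0.11 scaled by the poly(A) spikes described below) rose, and CDH1 (-1.26) and DSG3 (-0.45) fell, while KRT6A, KRT17 and TP63 had no such probe set. Markers of fibroblasts (2 of 6 above those controls, summed intensity at most 102), leukocytes (2 of 4, at most 118) and endothelium (2 of 3, at most 77.8) had lower sums. Sums over different probe sets and numbers of genes compare only roughly. CD68 (70.8 to 95.3), VWF (40.7 to 45.3) and PDGFRB (34.7 to 40.9) were clearly above those controls, and COL1A2, COL3A1, DCN, LUM, PTPRC, LYZ and CDH5 were not above them.

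Values are probe set intensities, which rank samples for 1 probe set and do not compare 1 probe set with another. Changes are log2 differences, mimic minus control, and are relative to the array as a whole. Their standard error (SE, n = 2 per group) is moderated by limma, which borrows spread from other probe sets. On the deposited scale the borrowed part had a median of 9.59 degrees of freedom, against 2 residual ones from the arrays. The median change of the 34505 probe sets tested was -0.04. It moved to -0.39 on a scale set by the poly(A) spikes (bacterial RNAs put into the samples as labelling controls, 0.35 higher on the mimic arrays), and the share of calls that were higher went from 53.1% to 16.7%. Of the 32 probe sets of these genes, 29 passed the filter on dim values, and the 3 that did not belong to ERO1B. The groups did not overlap in 76.8% of all tested probe sets, with the mimic arrays above in 36.3% and below in 40.4%. The 7 genes other than ERO1A and CANX have 18 tested probe sets, up to 6 per gene. In these the mimic arrays lay above in 17 and below in 1, and the median change was 0.66. That median was 0.31 on the scale of the spikes. In RNA from whole cultures, a change in every cell cannot be told apart from a change in the number of cells that carry the transcript.

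**Figure D1:**
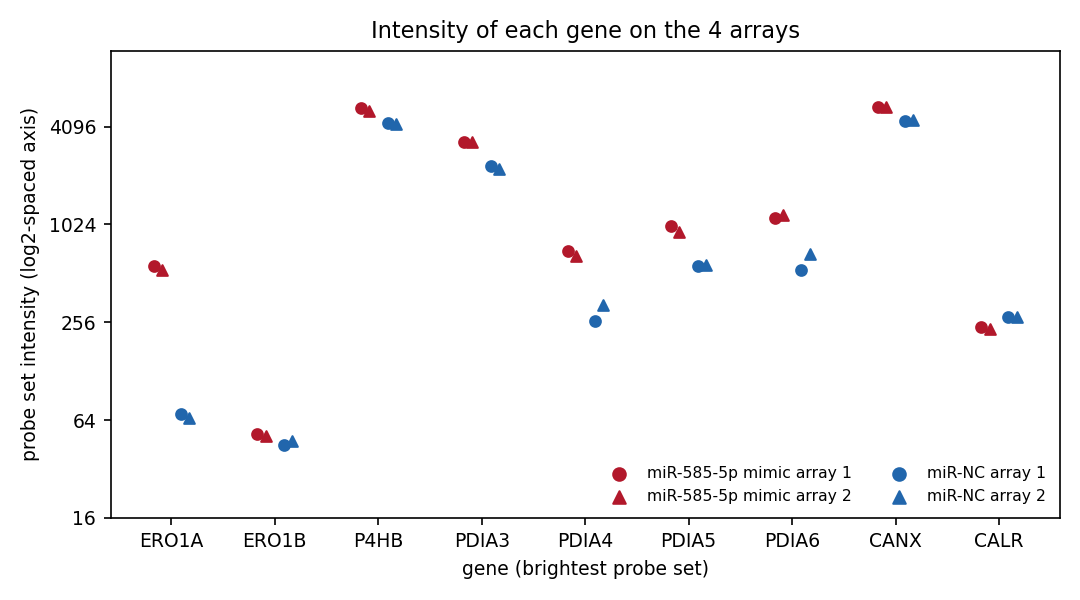
Intensity (y axis, log2-spaced) of the brightest probe set of each of the 9 genes on each array, with the miR-585-5p mimic in red and miR-NC in blue, circles for array 1 and triangles for array 2. ERO1A reads 571 and 536 against 70.0 and 66.1, and CALR is the gene with the mimic arrays below the control arrays.

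ERO1A, the widely expressed ER oxidase that is induced by hypoxia, differed most of the 9 genes. Its brightest probe set (11726320_at) read 571 and 536 with the mimic against 70.0 and 66.1 with miR-NC, a log2 change of 3.02 ± 0.08, or 8.13-fold. Its other probe set (11726321_a_at) read 326 and 335 against 80.7 and 103, a change of 1.86 ± 0.11, or 3.63-fold. The mimic arrays were high in both probe sets, and the groups stood far further apart than the arrays within either. The probe sets differed from each other in the size of the change by 1.16 ± 0.15. At its brightest probe set ERO1A ranked 10 among 14122 genes ordered by change, a place that its selection on these values makes likely. The changes of its 2 probe sets were 2.68 and 1.51 with the poly(A) spikes. The 5 genes outside the list whose 4 values, centred on the control mean, lay nearest to those of ERO1A were ANLN (distance 0.20 on the log2 scale), TFPI2 (0.21), KIF14 (0.22), CA12 (0.26) and TOP2A (0.29), with KIF14 not above the no-target controls on the control arrays.

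ERO1B, the paralogue known from secretory tissues such as the pancreas, gave little signal. Only 11734857_at was above the no-target controls, at 52.6 and 50.7 with the mimic against 45.0 and 47.5 with miR-NC. The mimic arrays were the higher, but its change of 0.16 ± 0.11 did not pass (limma adjusted p = 0.261), with a 95% interval of -0.09 to 0.41, and it was -0.19 with the poly(A) spikes. The other 3 ERO1B probe sets read at most 15.5 over the 4 arrays, not above background in either group, and carry no fold.

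The PDIs were measured by 15 probe sets and all 15 rose on the deposited scale, at a limma adjusted p under 0.05 with adjustment over all 34505 probe sets tested. Over the 7 genes other than ERO1A and CANX, 18 probe sets were tested, of which 15 rose, 1 fell and 2 did not pass. Of all probe sets tested, 51.0% passed, 27.0% as higher and 23.9% as lower. The 15 are not separate genes: 6 read P4HB, 3 each PDIA4 and PDIA6, 2 PDIA3 and 1 PDIA5. At the brightest probe set these isomerases rose, CALR fell and ERO1B did not pass, where 27.9% of all genes rose and 26.6% fell. Each of the 15 calls held when any single array was left out. With the poly(A) spikes 11 probe sets of these 7 genes were higher and 1 lower, against 3917 higher and 19510 lower of all 34505. The 4 calls lost were 3 of P4HB and 1 of PDIA3. Errors were wider on that scale, with an SE at the brightest probe set of 0.10 against 0.05 for PDIA3 and 0.11 against 0.04 for P4HB. The p-values on the spike scale rest almost wholly on borrowed spread, so calls there look surer than 2 arrays per group allow.

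PDIA4 (ERp72), an isomerase with an extra thioredoxin-like active domain, changed most among the PDIs of this list at the brightest probe set. Its brightest probe set (11716118_a_at) read 699 and 657 with the mimic against 261 and 328 with miR-NC, a rise of 1.21 ± 0.10 or 2.32-fold (limma adjusted p = 7.36e-07). The other probe sets read 155 and 151 against 72.5 and 82.4 (11716117_at, 0.99 ± 0.10) and 533 and 524 against 289 and 299.9 (11716119_x_at, 0.84 ± 0.07). All 3 separated the groups, and the control arrays of 11716118_a_at differed more from each other than the mimic arrays did. Scaled by the poly(A) spikes, the 3 changes were 0.87, 0.64 and 0.50.

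PDIA6 (P5), an isomerase that works with the chaperone HSPA5 (BiP), rose by a like amount in each of 3 probe sets. The brightest (11745720_s_at) read 1119 and 1178 against 538 and 677, a change of 0.93 ± 0.09 or 1.90-fold (limma adjusted p = 3.89e-06). The others read 791 and 779 against 368 and 432 (11749778_a_at, 0.98 ± 0.08) and 832 and 819 against 440.0 and 473 (11715434_a_at, 0.86 ± 0.06). The lowest mimic value lay above the highest control value in each.

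PDIA5, a less studied isomerase, has 1 probe set (11716919_a_at), at 997 and 923 with the mimic against 570.4 and 575 with miR-NC. It rose by 0.74 ± 0.06 or 1.68-fold (limma adjusted p = 1.04e-06). PDIA3 (ERp57), the isomerase that binds calnexin and calreticulin, read 3282 and 3269.5 against 2328 and 2232 at its brightest probe set (11743441_s_at), a rise of 0.52 ± 0.05 or 1.44-fold (limma adjusted p = 1.53e-06). Its other probe set (11743440_at) read 272 and 278 against 164 and 165, a rise of 0.74 ± 0.08. The groups stood clear of each other in both, and with the poly(A) spikes the brightest was at 0.18 and did not pass (limma adjusted p = 0.109).

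Among the isomerases of this list P4HB, the founding PDI and the beta subunit of collagen prolyl 4-hydroxylase, rose least at the brightest probe set. This probe set (11716175_x_at) went from 4313 and 4226 to 5307 and 5121. That is a change of 0.29 ± 0.04 or 1.22-fold (limma adjusted p = 8.81e-05), which turned to -0.06 with the poly(A) spikes. All 6 probe sets rose on the deposited scale, by 0.27 to 0.68. The largest change was at 11752448_a_at, which read 272 and 312 against 171 and 194. With the poly(A) spikes 11716174_s_at also turned, to -0.07, and 11716173_a_at no longer passed (0.11).

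**Figure D2:**
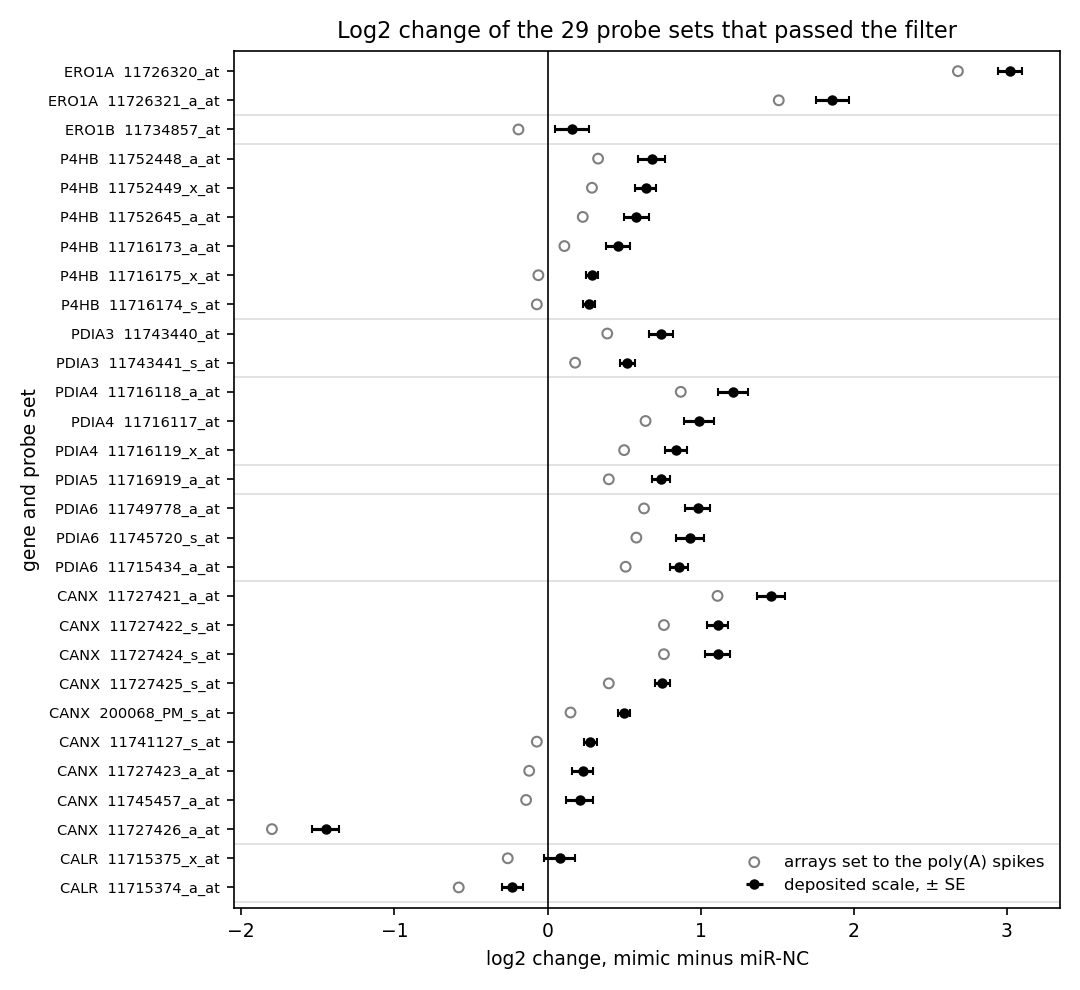
Log2 change, mimic minus miR-NC (x axis), of each of the 29 probe sets that passed the filter, grouped by gene (y axis). Black points with bars are the deposited scale ± SE (n = 2 per group), open grey points the same probe set scaled by the poly(A) spikes. ERO1A stands at 3.02 and 1.86, the PDIs lie between 0.27 and 1.21, and CANX spans -1.45 to 1.46.

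Probe sets of 1 gene changed by unequal amounts in part of the list. Each gene's brightest probe set was set against each of its others, and the difference of the changes was tested over all 17630 such pairs on the array, 27.0% of which passed. Without ERO1A and CANX the genes have 11 pairs, and 5 passed: 3 of 5 for P4HB, 1 of 1 for PDIA3, 1 of 2 for PDIA4, and 0 of 2 for PDIA6 and 0 of 1 for CALR. The widest gap in P4HB was -0.39 ± 0.10 (brightest minus 11752448_a_at, limma adjusted p = 0.0315) and that of PDIA4 was 0.37 ± 0.11 (brightest minus 11716119_x_at, limma adjusted p = 0.0399). None of the 5 passed without mimic replicate 2 (limma adjusted p = 0.113 to 0.286) or with a spread estimated without a trend. Without mimic replicate 1, and without control replicate 1, the PDIA3 and PDIA4 pairs did not pass. Without control replicate 2, 3 further pairs passed.

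CANX, the membrane-bound lectin chaperone, was chosen because its probe sets go opposite ways. In 8 of 9 probe sets the mimic arrays lay above the control arrays and in 1 below. The largest rise in signal was at 11727421_a_at, which read 562 and 580.1 with the mimic against 191 and 227 with miR-NC, a log2 change of 1.46 ± 0.09 or 2.75-fold. Near it were 11727422_s_at, at 809 and 755 against 355 and 369 (1.11 ± 0.07), and 11727424_s_at, at 503 and 550.4 against 227 and 263 (1.11 ± 0.08). These 3 probe sets separated the groups by far more than the arrays of a group differed.

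The 3 brightest CANX probe sets changed less. The brightest, 11741127_s_at, read 5399.8 and 5442 against 4434 and 4489 (0.28 ± 0.04), 200068_PM_s_at read 5401 and 5328 against 3733 and 3848 (0.50 ± 0.04), and 11727425_s_at read 5472 and 5490.1 against 3135 and 3409 (0.75 ± 0.05). Smaller still were 11727423_a_at (0.23 ± 0.07) and 11745457_a_at, at 249.7 and 263 against 241 and 205 (0.21 ± 0.09), where the gap between the nearest arrays of the groups was less than that between the control arrays. With the poly(A) spikes 3 of the 8 turned: 11741127_s_at to -0.07, 11727423_a_at to -0.12 and 11745457_a_at to -0.14.

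The probe set on the other side, 11727426_a_at, read 63.8 and 64.2 with the mimic against 172 and 179 with miR-NC. That is a log2 change of -1.45 ± 0.09, 2.74-fold lower with the mimic. Its values were above the no-target controls on all 4 arrays, and the mimic arrays differed from each other less than the control arrays did. Against the brightest CANX probe set its change differed by 1.73 ± 0.06. The annotation names the reference messenger RNA NM_001746.3 as its source sequence, while 11727421_a_at and 11727422_s_at share the source CB243867, 11727425_s_at and 200068_PM_s_at share M94859.1, and 11727423_a_at and 11727424_s_at, at 0.23 and 1.11, share L18887.1. Which exons or transcript ends the 9 probe sets read was not analysed here. The mean over all 9 gave a change of 0.46.

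**Figure D3:**
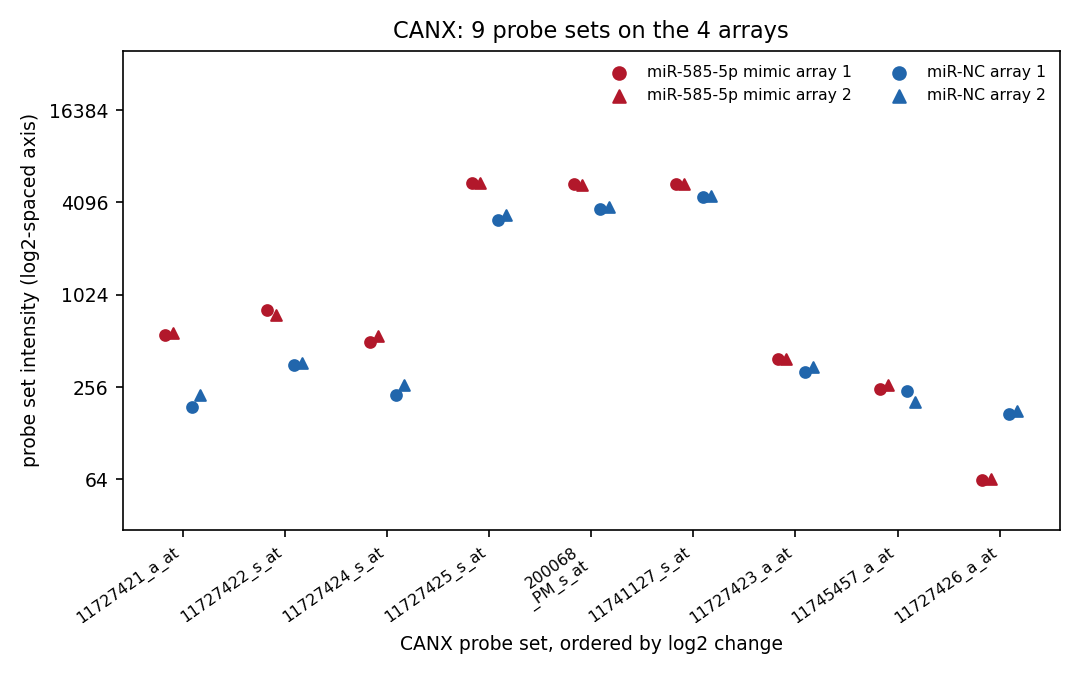
Intensity (y axis, log2-spaced) of the 9 CANX probe sets on each array, ordered from the highest to the lowest log2 change, with the miR-585-5p mimic in red and miR-NC in blue, circles for array 1 and triangles for array 2. The red points lie above the blue in 8 probe sets and below in 11727426_a_at, at 63.8 and 64.2 against 172 and 179.

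CALR, the soluble counterpart of calnexin in the ER lumen, was the gene whose brightest probe set fell. That probe set (11715374_a_at) read 239 and 231 with the mimic against 277 and 274 with miR-NC, a fall to 0.852 of the control level and a change of -0.23 ± 0.07 (limma adjusted p = 0.0204). It did not pass without mimic replicate 1 (limma adjusted p = 0.0835) or mimic replicate 2 (0.147), or with a spread estimated without a trend (0.0533). The second probe set (11715375_x_at) read 79.3 and 80.1 against 72.0 and 78.5, and its change of 0.08 ± 0.10 did not pass (limma adjusted p = 0.517, 95% interval -0.14 to 0.31) and was -0.26 with the poly(A) spikes. The mean of both was -0.07.

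Ordered by the change at the brightest probe set, the genes ran ERO1A 3.02, PDIA4 1.21, PDIA6 0.93, PDIA5 0.74, PDIA3 0.52, P4HB 0.29, CANX 0.28, ERO1B 0.16 and CALR -0.23. The 95% intervals of PDIA4 (upper end 1.42), PDIA6 (0.73 to 1.12), PDIA5 (0.61 to 0.88) and PDIA3 (0.42 to 0.62) overlapped from neighbour to neighbour. So did those of P4HB (0.20 to 0.38) and ERO1B (-0.09 to 0.41). The order and the intervals hold for the brightest probe sets only. Among other probe sets, PDIA4 had 1 at 0.84, PDIA3 at 0.74 and P4HB at 0.68, and CANX spanned -1.45 to 1.46.

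The promoters of these genes were then searched for motifs. The first motif is known from ER chaperone genes, so its share among genes chosen for ER folding is not independent of that choice. The unfolded protein response raises ER chaperone genes largely through the ER stress element (ERSE), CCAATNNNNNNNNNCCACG, in which the first block binds the factor NF-Y and the second ATF6. RefSeq windows of 300 bases (250 before to 50 after a start site, GRCh38.p14) were found for 9 of the 10 named genes, PDIA3 having none in the table. ERSE, searched on both strands, was in a window of 4 of these 9 (ERO1B, PDIA6, CANX and CALR), against 0.0916% of the 27305 genes with a window and 0.0769% of all 35116 windows. The matches are shown as the strand of the gene reads, with the blocks in capitals. On the opposite strand they appear as CGTGG and ATTGG.
ERO1B, chr1:236282173-236282208, minus strand: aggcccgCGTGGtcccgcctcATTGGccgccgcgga
PDIA6, chr2:10812843-10812881, minus strand: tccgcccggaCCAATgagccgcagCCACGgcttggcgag
CANX, chr5:179698768-179698806, plus strand: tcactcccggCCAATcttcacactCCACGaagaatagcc
CALR, chr19:12938374-12938412, plus strand: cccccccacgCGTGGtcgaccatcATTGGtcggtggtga
The last base of the element lay 225 bases before the start site for ERO1B, 68 for PDIA6, 133 for CANX and 207 for CALR, and the CANX match is 1 position that 3 of its 4 windows share, 171 bases before the start site of the second and past the start site of the third.

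The 4 genes with the element did not move alike. PDIA6 rose by 0.93, CANX was at 0.28 at its brightest probe set, ERO1B was at 0.16 and did not pass, and CALR was at -0.23. Of the 25 genes on the genome with the element in a window, 13 outside the list were tested at their brightest probe set, and 4 rose (HSPA5 0.78, FICD 0.73, CRELD2 0.49 and HSP90B1 0.38), 2 fell (TRIM5 -0.62 and SYNPO -1.76) and 7 did not pass, among them XBP1 (0.10). They had a median change of 0.13, and their share of higher calls was near the 27.9% of all genes read in this way. With the poly(A) spikes HSPA5 was at 0.43, CRELD2 at 0.14 and HSP90B1 at 0.04, and the rest are not given on that scale. For 4 other motifs searched on both strands, brackets give the share of all genes with a window. ERSE-II (ATTGGNCCACG, 0.0696%) and the C/EBP-ATF element (TGATGNAA, 4.46%) were in none of the 9 genes. The unfolded protein response element (TGACGTGG, 0.927%) was in TXNDC5 alone. The core recognised by hypoxia-inducible factors (ACGTG, 24.9%) was in ERO1A, PDIA4, PDIA5, PDIA6, TXNDC5 and CANX, and it overlaps the unfolded protein response element. These motifs were chosen after the values were known, and a match is a description of the letters only.

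Around these genes, 86 further genes, nearly all of ER folding, were read at their brightest probe set in 6 lists, and 81 passed the filter. Of these, 48 rose, 11 fell and 22 did not pass, with a median change of 0.30. Over all 14122 genes read in the same way, 54.4% passed, 27.9% as higher and 26.6% as lower, and the median was -0.06. With the poly(A) spikes 17 of the 81 were higher and 28 lower, with a median of -0.04. On that scale 70.9% of all genes passed, 11.6% as higher and 59.3% as lower, and their median was -0.40. Of the 59 calls, 12 turned direction there, all of them rises on the deposited scale.

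Other members of the PDI family went both ways: 6 of 13 rose and 3 fell, or 3 and 6 with the poly(A) spikes. AGR2, an isomerase of mucus-secreting epithelium, rose from 74.4 and 83.2 to 257 and 312 (1.85 ± 0.11, limma adjusted p = 6.34e-08), and the membrane-bound thioredoxin TMX4 from 127 and 136 to 308 and 328 (1.27 ± 0.08). The mean of all probe sets was 0.89 for AGR2, where 2 of 4 passed the filter, and 0.74 for TMX4. The chaperone-like ERP29, which lacks the active cysteine pair of the isomerases, fell from 5970.2 and 5909 to 2944 and 2762 (-1.06 ± 0.04, limma adjusted p = 5.74e-09), and its 3 other probe sets fell as well. ERP27, another member without active cysteines, fell from 32.4 and 36.9 to 17.2 and 15.8 (-1.07 ± 0.14), where the mimic arrays were at the level of the no-target controls.

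Of 13 genes for other routes of oxidation and redox control, mainly in the ER, 9 rose and 1 fell, or 1 and 3 with the poly(A) spikes. The list includes GFER and CHCHD4, which act in mitochondria and did not pass on the deposited scale (-0.14 and -0.11). The selenoprotein SELENOM rose from 126 and 134 to 339 and 348 (1.40 ± 0.08, limma adjusted p = 4.95e-08). The peroxidases GPX7 (0.60 ± 0.10) and PRDX4 (0.46 ± 0.04), which consume the peroxide that ERO1 makes, rose on the deposited scale and did not pass with the poly(A) spikes (0.25 and 0.11). VKORC1L1, a vitamin K epoxide reductase, fell from 555 and 538 to 314 and 273 at its brightest probe set (-0.90 ± 0.08), although of its others 1 fell and 1 rose, and the mean of all 5 was 0.04.

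In the calnexin and calreticulin cycle, which trims and re-adds a glucose on glycoproteins until they fold, 9 of 14 genes rose and 2 fell, or 5 and 4 with the poly(A) spikes. The ER lectin malectin (MLEC) rose from 425 and 398 to 1009 and 1020.0 (1.30 ± 0.06, limma adjusted p = 1.44e-08), with all 3 other probe sets. UGGT1, which returns glucose to unfolded glycoproteins, rose from 99.1 and 117 to 209.8 and 238 (1.05 ± 0.10). Its relative UGGT2 was at 1.26 ± 0.10 at its brightest probe set but at -0.27 without probe sets marked for cross-hybridization, and the cargo adaptor MCFD2 was at 0.74 ± 0.07 and then at 0.13. In the oligosaccharyltransferase, which adds the glycan, 7 of 12 rose and 1 fell, or 1 and 5 with the poly(A) spikes. The catalytic subunits STT3A (0.66 ± 0.07) and STT3B (0.53 ± 0.09) and the subunit DDOST (0.51 ± 0.05) rose, and DAD1 fell from 4632 and 4615 to 2761 and 2747 (-0.75 ± 0.04, limma adjusted p = 4.30e-08) in all 4 probe sets. STT3B (0.19) and DDOST (0.16) did not pass with the poly(A) spikes.

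Among 20 other ER chaperones 13 rose and 1 fell, or 5 and 6 with the poly(A) spikes. HSPA5 (BiP), the main ER chaperone of the HSP70 family, rose from 2859 and 3184 to 5085 and 5243 (0.78 ± 0.05, limma adjusted p = 2.22e-07), and its cochaperone DNAJB11 from 658 and 771 to 1176 and 1152 (0.71 ± 0.07). The prolyl isomerases FKBP9 and FKBP10 rose by 0.85 ± 0.10 and 0.84 ± 0.13 at their brightest probe sets. Without probe sets marked for cross-hybridization FKBP9 was at 0.31 and FKBP10 at -0.35. Of 9 partners of P4HB and collagen hydroxylases, 4 rose and 3 fell, or 2 and 4 with the poly(A) spikes. The lysyl hydroxylase PLOD2 rose from 221 and 270.0 to 1627 and 1745, a change of 2.79 ± 0.09 or 6.89-fold (limma adjusted p = 8.58e-10), and its 3 other probe sets rose too. The catalytic subunits that pair with P4HB, P4HA1 (0.67 ± 0.05) and P4HA2 (0.54 ± 0.05), rose, although P4HA2 did not pass with the poly(A) spikes (0.19), and the prolyl 3-hydroxylase P3H2 fell from 1853 and 1806 to 1079 and 939 (-0.86 ± 0.07).

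**Figure D4:**
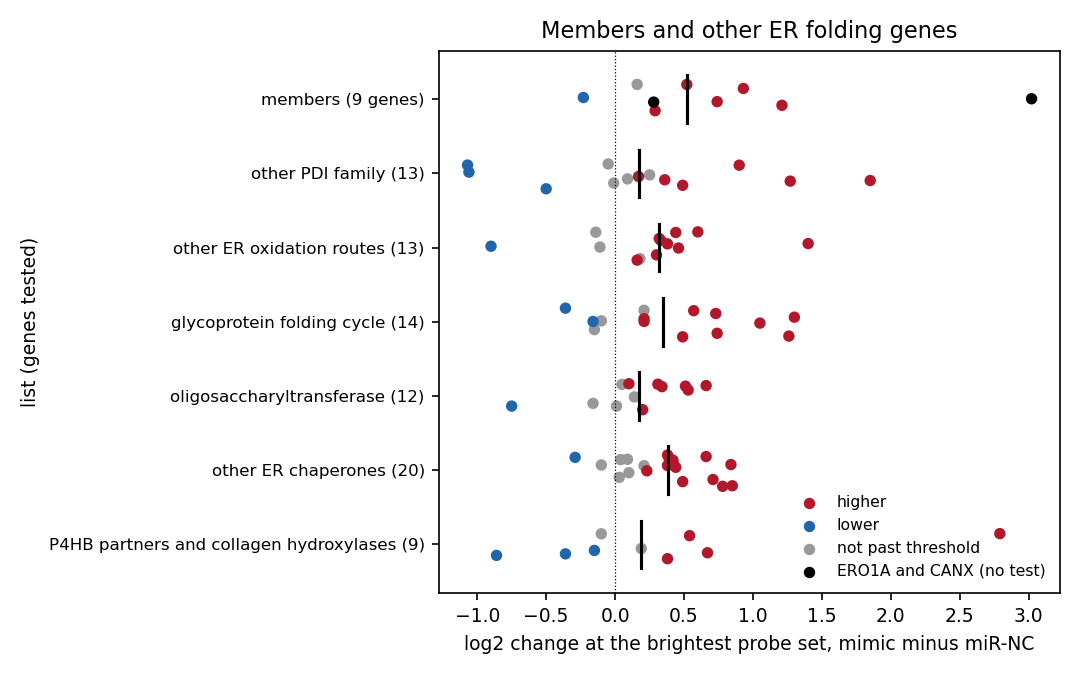
Log2 change at the brightest probe set, mimic minus miR-NC (x axis), of the 9 genes described here and of the tested genes of each further list (y axis, number in brackets), on the deposited scale. Red points rose and blue points fell at a limma adjusted p under 0.05, grey points did not pass, black points (ERO1A and CANX) were not tested, and bars are medians, such as 0.39 for the other ER chaperones.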

How the data were processed

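The authors deposited 1 intensity per probe set and array, made with RMA per the submitters' processing notes. RMA corrects background and normalizes between arrays. The deposited intensity values run from 2.09 to 17329, so they were read as linear and their log2 was taken. Software versions, filters and any floor are not given in the sources used here. Of 49395 probe sets, 102 are controls, 44988 have 1 gene symbol in the platform annotation, 1832 several and 2473 none here, and 0 symbols changed through the GRCh38.p14 gene table.

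All probe sets that are not controls and whose mean exceeded the 30th percentile (intensity 12.0) were fitted together with limma 3.58.1 in R 4.3.3 (lmFit, eBayes with a mean-variance trend, 2 residual degrees of freedom), two-sided, with Benjamini-Hochberg adjustment over all 34505 and a threshold of 0.05. The fit was checked on simulated data. A gene in a list is read at its brightest probe set, and up to 4 called genes with the largest changes are named per list. Pairs of probe sets were fitted likewise. A probe set is above background in a group if it exceeds the highest no-target control (16.8) on any array. Only 2 arrays per group limit the precision. The genes and lists were chosen with earlier results of these data known. Same-numbered arrays did not deviate together (correlation 0.052).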

Additional observations from a re-analysis of the deposited data

How the results depend on the processing

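Filters, scalings, an offset, the spread estimate, a replicate block, and leaving out cross-hybridizing probe sets or 1 array were varied. Filtering at the level of the no-target controls was chosen after seeing the data. Leaving out cross-hybridizing probe sets takes them out of the fit, so all counts in that setting have a smaller base. No call of the 7 tested genes that stayed in the fit was lost there. The 16 calls among the probe sets of the 7 tested genes ranged from 11 (without cross-hybridizing probe sets) to 18 (no filter), and were 12 with the poly(A) spikes and 15 to 17 when 1 array was left out. The 59 called list genes ranged from 45 to 62. Over all probe sets, 17589 were called, 11645 without cross-hybridizing probe sets and 11185 to 18091 when 1 array was left out, 11185 being without mimic replicate 2. Unequal pairs numbered 4768, with 2787 without cross-hybridizing probe sets, 2312 without mimic replicate 1, 1880 without mimic replicate 2, and 1880 to 5888 over the arrays left out.

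Log2 changes at the brightest probe set turned with the poly(A) spikes for ERO1B (-0.19), P4HB (-0.06), CANX (-0.07) and 12 called list genes: CNPY2, EDEM1, ERLEC1, KRTCAP2, OSTC, QSOX1, RPN1, SELENOF, SELENOS, TMEM258, TMX2 and VKORC1. The mean of all probe sets turned VKORC1L1 (0.04) and TMX1 (-0.01). Leaving out cross-hybridizing probe sets turned UGGT2 (-0.27), FKBP10 (-0.35) and TMX1 (-0.45). The cause was not tested. The mean of all probe sets brought ERO1B past the threshold (0.46), but 3 of its 4 probe sets were not above background. With the replicate block 16 probe sets of the 7 genes, 62 list genes and 5024 pairs were called, and the PDIA3 pair no longer passed (limma adjusted p = 0.0595). The probe set p-values of that fit rest almost wholly on borrowed spread. The titles' numbers are not said to pair arrays.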
